A study of Mus musculus with 12 samples.

Results

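Peaks of the ubiquitinated histone H2AK119ub and of the chromatin proteins BAP1 and ASXL1 were read at 10 genes that encode transcription factors of blood stem and progenitor cells: Runx1, Gata2, Erg, Fli1, Lmo2, Tal1, Lyl1, Spi1, Mecom and Myb. The 10 were taken by name from the 21757 protein-coding genes of the annotation. Every peak was kept that met the promoter of a gene, 2 kb on each side of the canonical transcription start site (TSS), or the rest of its canonical transcript, called the body here. That gave 145 of the 159554 peaks on chromosomes 1 to 19, X and Y in 12 libraries.

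The cells were c-Kit+ cells of mouse bone marrow, where blood stem cells and their first progeny are concentrated. All of them, the controls included, carried a retrovirus for BAP1, added together with a second retrovirus for an ASXL1 construct or an empty vector. In the 1-590 set, CUT&RUN for H2AK119ub, where an antibody-guided nuclease releases marked chromatin, was made with vector, ASXL1 (1-590), its form 10RA (condensation-impaired in the labels) and its form 25RA (condensation-defective). The 1-1067 set held its own vector, ASXL1 (1-1067) and the charge-neutralized forms 34DN and 36EQ. ChIP-seq of BAP1 and of ASXL1 was made with 1-590 and with 10RA, 4 libraries in all. Genotype is given as mock, and strain, age, pooling of animals and selection of transduced cells are not given in the sources used here. The ChIP descriptions name antibodies to BAP1 or ASXL1, and the protocol an antibody to the HA tag. Inside the lists of 25RA, 34DN and 36EQ the peaks are named with codes that differ from the titles, and the titles were followed for these 3 mutants.

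Each condition had 1 library. No comparison between conditions therefore has a replicate check or a test, and a promoter without a listed peak is not a promoter without the mark. In bulk chromatin, fewer marked cells and less mark per cell cannot be told apart. Fold and -log10 values of a peak are those of the authors' peak caller and describe peaks within a list. Depth differed between libraries: the genome background, the lowest background under any peak, was 0.908 fragments per base in vector, 2.06 with 1-590, 1.72 with 10RA and 1.86 with 25RA of the 1-590 set, and 2.17 to 2.92 in the 1-1067 set. In the 1-590 set 86.0% to 96.0% of peaks had a q of 0.05 or less. In the 1-1067 set this share was 22.8% to 32.7%, and in the ChIP lists 10.6% to 16.9%. To set libraries of a set side by side, the fragments at a summit were divided by the genome background of the library. This quotient is called the level, and its exact 95% Poisson intervals cover counting error only. It is read only at summits that passed the calling threshold, which favours high draws. Some stem cell genes other than the 10 were marked too. Promoters of Kit and Cd34, both surface proteins of these cells, were each listed in the 4 H2AK119ub libraries of the 1-590 set and in none of the 1-1067 set. Over all genes, 26.7% of promoters were listed in all 4 libraries of the 1-590 set, and 79.1% in none of the 1-1067 set. Ly6a, a further stem cell marker, and Cdh5, an endothelial gene, had none in any library, and Col1a1, a stromal gene, had a peak in 5 of the 8. Peaks of a chromatin mark do not measure expression, so the labelled cell type could not be checked by RNA.

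Runx1, Gata2, Tal1, Lyl1, Lmo2, Erg and Fli1 are known to bind together at regulatory elements of blood stem cells, where Lmo2 bridges Tal1 or Lyl1 to Gata2 without touching DNA. Spi1 (PU.1) directs myeloid and B cell fates, Mecom sustains stem cells, and Myb sustains progenitor growth. H2AK119ub is laid down by Polycomb repressive complex 1 and removed by BAP1, whose cofactor is ASXL1. Truncated ASXL1 arises in myeloid malignancies.

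Among H2AK119ub peaks at these genes, overlapping intervals of the 8 libraries merged into 112 sites, counted over the whole annotated gene and the promoter. Of these, 76 were listed in 1 library and 36 (32.1%) in more, against 35.5% of 58630 sites over all genes. The sites listed in 4 or more libraries were at Runx1, Erg, Lyl1, Spi1 and Myb. The 4 of them that lay in introns of Runx1 and Erg are printed first, as 200 bases around the summit of highest fold. The stretches are from the plus strand of GRCm39, and CG dinucleotides, the letters that make CpG islands, are in capitals. These windows were chosen after their values were seen.
Runx1 intron 6 (chr16:92417767-92417966): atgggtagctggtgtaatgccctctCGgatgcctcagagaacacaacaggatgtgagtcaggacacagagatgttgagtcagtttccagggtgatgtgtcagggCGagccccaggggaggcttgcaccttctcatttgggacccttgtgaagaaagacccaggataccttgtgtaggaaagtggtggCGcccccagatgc
Runx1 near the proximal start (chr16:92494663-92494862): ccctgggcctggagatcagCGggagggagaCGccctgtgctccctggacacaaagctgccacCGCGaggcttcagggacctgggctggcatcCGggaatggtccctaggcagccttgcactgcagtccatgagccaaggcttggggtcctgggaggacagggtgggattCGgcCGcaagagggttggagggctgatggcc
Erg near the distal start (chr16:95386398-95386597): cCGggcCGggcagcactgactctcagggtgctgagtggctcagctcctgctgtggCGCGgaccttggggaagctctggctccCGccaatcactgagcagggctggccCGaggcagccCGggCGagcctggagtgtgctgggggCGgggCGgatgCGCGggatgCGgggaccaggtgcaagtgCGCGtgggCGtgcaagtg
Erg intron 3 (chr16:95186198-95186397): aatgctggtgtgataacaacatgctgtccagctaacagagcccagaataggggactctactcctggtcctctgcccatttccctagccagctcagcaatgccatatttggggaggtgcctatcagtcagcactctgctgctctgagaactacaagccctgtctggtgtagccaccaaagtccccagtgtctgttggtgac

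Runx1 encodes the DNA-binding partner of core-binding factor, and the gene is read from a distal and a proximal promoter. The most widely shared site among the 10 genes was in its intron 6, 205.2 kb downstream of the distal, canonical TSS (chr16:92417454-92418252). It was listed in 5 libraries, all 4 of the 1-590 set and the vector of the 1-1067 set. The level was 18.7 with vector (95% interval 10.9 to 30), 9.71 with 1-590 (5.93 to 15.0), 9.88 with 10RA (5.75 to 15.8) and 6.45 with 25RA (3.33 to 11.3). Vector was the highest and 25RA the lowest, with intervals that overlapped. In the vector of the 1-1067 set the summit held 15 fragments, a level of 5.14 (2.88 to 8.48), and its -log10 q of 0.92 missed a q of 0.05.

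The second Runx1 site lay beside the proximal promoter. Its interval (chr16:92494099-92494960) was listed in all 4 libraries of the 1-590 set, with the nearest summit 283 bases from an annotated coding start 128.8 kb downstream of the distal TSS. The level there was 16.5 with vector (9.25 to 27.3), 13.1 with 1-590 (8.64 to 19.1), 12.8 with 10RA (8.01 to 19.4) and 10.2 with 25RA (6.15 to 16.0). A neighbouring site 127.5 kb downstream (chr16:92495236-92495933) was listed with the 3 ASXL1 constructs but not with vector. Its fold was the highest of all Runx1 peaks in the 1-590 list, 5.21, at 33 fragments, and likewise in the 10RA list, 5.32, at 24 fragments. With 25RA its fold was 3.02, at 16 fragments. The distal promoter itself held a peak in 1-590 alone (chr16:92622799-92623038, fold 2.63, 23 fragments, level 11.2, interval 7.08 to 16.8).

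Erg, an ETS factor needed for stem cell self-renewal, showed the same arrangement of a marked far start and a sparsely marked canonical one. The printed site near the distal start (chr16:95386236-95386786), at -126.3 kb from the canonical TSS and inside an intron of the longer transcript, was listed in all 4 libraries of the 1-590 set. The level was 14.3 with vector (7.63 to 24.5), 18.0 with 1-590 (12.7 to 24.8), 16.8 with 10RA (11.3 to 24.2) and 14.0 with 25RA (9.13 to 20.5), again with overlapping intervals. This printed window was rich in CpG, with 16 CG dinucleotides and an observed over expected ratio of 0.65. A site in intron 3, 73.9 kb downstream (chr16:95186194-95186616), was listed with 1-590 (level 8.74), 10RA (9.30) and 25RA (9.68) and with the vector of the 1-1067 set (5.83). Its printed window held 0 CG dinucleotides. Starts of Erg at -71.0 and -65.3 kb had no H2AK119ub peak within 2 kb. At the canonical TSS a peak was listed with 1-590 alone (chr16:95259466-95259714, fold 2.75, 21 fragments, level 10.2, interval 6.31 to 15.6).

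**Figure D1:**
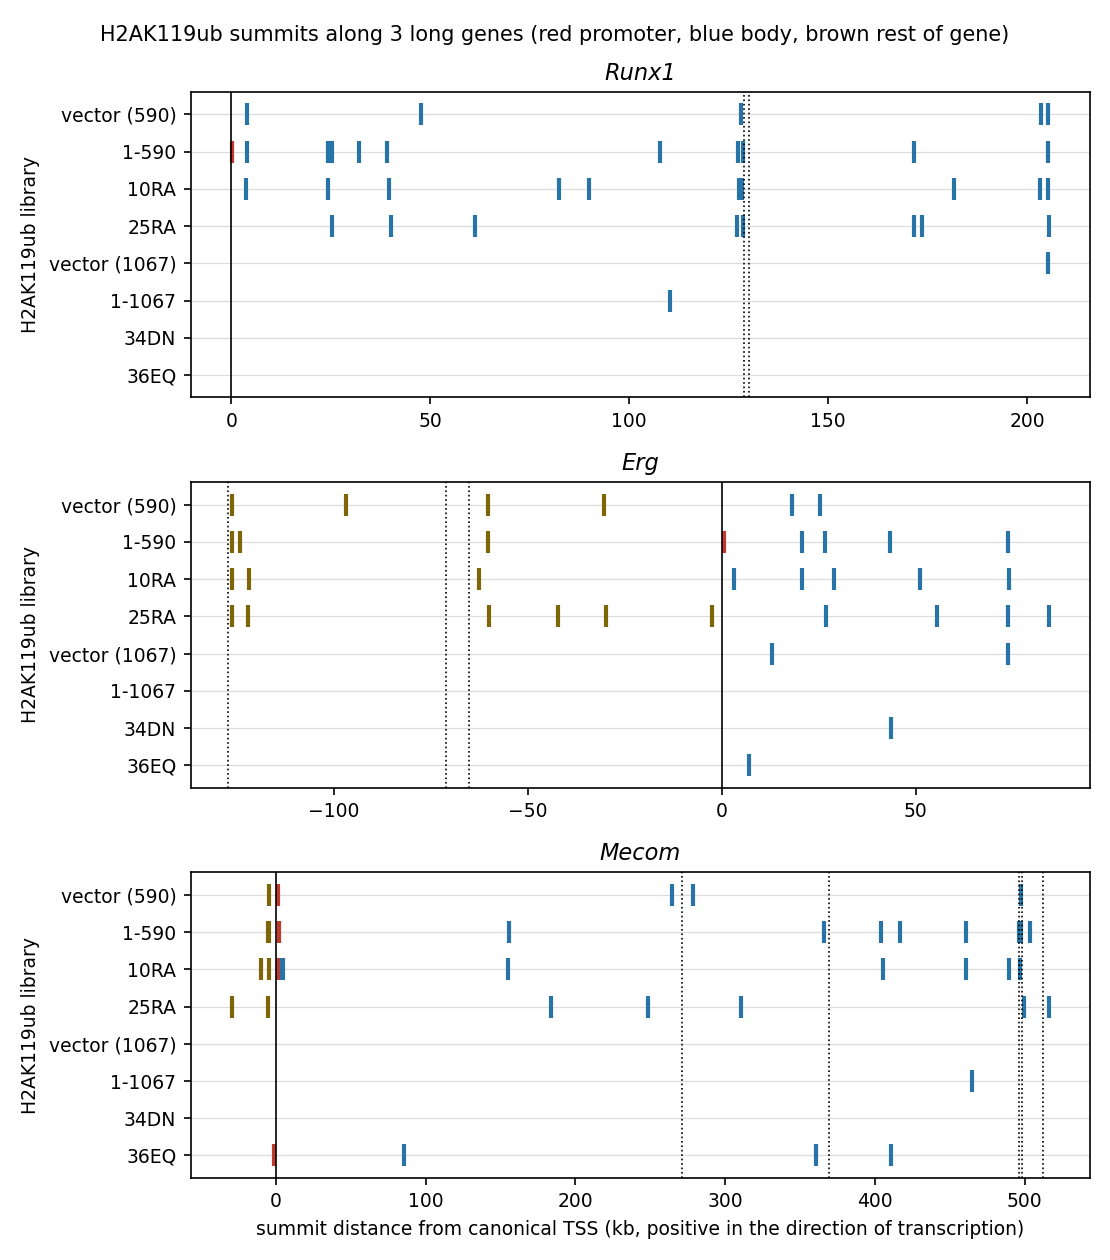
H2AK119ub summits along Runx1, Erg and Mecom in the 8 libraries (1 line each), by distance from the canonical TSS in kb, positive in the direction of transcription. The solid line is the canonical TSS and dotted lines are other clusters of annotated coding starts; the cluster at 128.8 kb in Runx1 and that at -127.2 kb in Erg have summits within 2 kb in all 4 libraries of the 1-590 set.

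Counting only the canonical promoter thus leaves out starts that these genes are known to use. Mecom, which encodes a zinc finger protein, has a long MDS1-EVI1 form and a short EVI1 form. A cluster of 12 annotated starts lay 496.2 kb downstream of its canonical TSS, and a peak lay within 2 kb of it in vector (fold 3.73), 1-590 (3.06) and 10RA (2.73) of the 1-590 set. A single start at 498.3 kb had a peak in all 4. Starts of Mecom at 271.4, 369.3 and 512.0 kb had none in any H2AK119ub library.

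Tal1, the basic helix-loop-helix factor that opens blood development, was the only one of the 10 genes with no H2AK119ub peak at the canonical promoter in any library. Its neighbouring starts were marked. A site in a coding exon 3.9 kb downstream (chr4:114920425-114920849) had a level of 17.6 with vector (10.1 to 28.6), 14.6 with 1-590 (9.83 to 20.8) and 13.9 with 10RA (8.93 to 20.7). With 25RA the nearest peak was 4.5 kb downstream, at a level of 10.8 (6.57 to 16.6). Upstream starts at -3.1 kb had a peak in vector (fold 2.82, 12 fragments), 1-590 (4.48, 47 fragments) and 10RA (3.59, 22 fragments). None was listed there with 25RA. The upstream starts of Spi1 at -13.9 kb had a peak with 1-590 (fold 3.41) and 25RA (2.59), and those of Lmo2 at -12.1 kb and of Gata2 at -4.8 and -1.8 kb had none.

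At the canonical promoters, 9 of the 10 genes held an H2AK119ub peak with 1-590, 5 with vector, 4 with 10RA and 4 with 25RA. Over all genes, 55.2% of promoters held a peak with 1-590, 40.5% with vector, 41.4% with 10RA and 47.8% with 25RA. In the 1-1067 set 3 genes held a promoter peak with 1-1067 (9.21% of all genes), 1 with 36EQ (8.52%), 0 with 34DN (6.95%) and 0 with vector (7.44%). In the lists as deposited, the 1-590 library was thus the highest of its set for these genes and for all genes. It was also the deepest of its set, with a genome background of 2.06 against 0.908 in vector. With lists of equal length the counts were 6 genes with 1-590, 5 with vector, 4 with 10RA and 2 with 25RA. All 30 promoter peaks in the 1-590 set had a q of 0.05 or less, as had 2 of 4 in the 1-1067 set. With every annotated coding start counted as a promoter, the 1-590 set gave 10 genes with 1-590, 8 with vector, 7 with 10RA and 8 with 25RA.

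**Figure D2:**
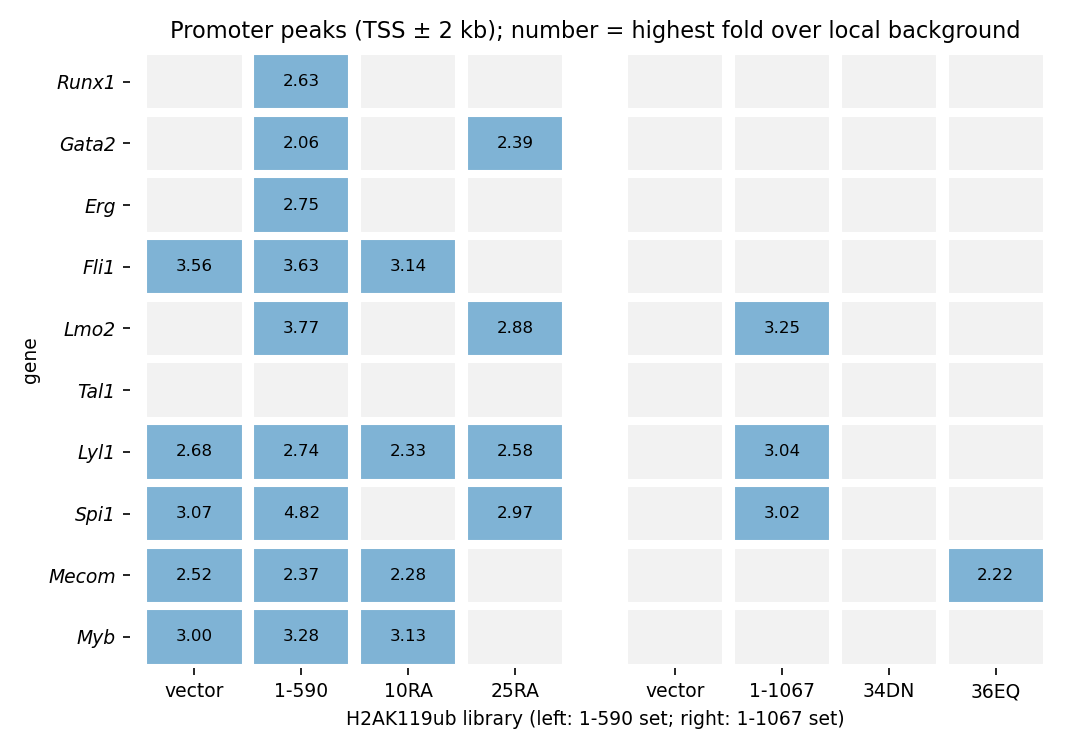
H2AK119ub peaks at the canonical promoters of the 10 genes (top to bottom) in 8 libraries (left to right, 1-590 set on the left, 1-1067 set on the right). Blue cells hold a peak and print its highest fold over the local background; grey cells have no listed peak, and the 1-590 column is blue in 9 of 10 genes.

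Lyl1, a helix-loop-helix factor related to Tal1, was the only one of the genes whose promoter was listed in each of the 4 libraries of the 1-590 set. The level of its highest-fold promoter peak was 23.1 with vector (14.3 to 35.4), 26.7 with 1-590 (20.1 to 34.8), 16.8 with 10RA (11.3 to 24.2) and 15.6 with 25RA (10.4 to 22.4). The summits of vector, 1-590 and 10RA fell within 311 bases downstream of the TSS, and that of 25RA at -1586 bases. With 1-1067 a summit lay 45 bases downstream of the TSS (level 9.69, 6.0 to 14.8).

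Spi1 had the promoter peak of highest fold in the 1-590 set. With 1-590 it covered chr2:90926835-90927696, over the first exon and intron, with fold 4.82 and 30 fragments. In level this promoter stood at 14.6 with 1-590 (9.83 to 20.8), 15.4 with vector (8.43 to 25.9) and 9.68 with 25RA (5.74 to 15.3), so vector and 1-590 were close although their folds were 3.07 and 4.82. With 10RA no promoter peak was listed, and at the local background seen with 1-590 a level of 6.97 would have entered that list. With 1-1067 a summit at 1164 bases held 11 fragments and a -log10 q of 0.75.

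Lmo2 had promoter peaks with 1-590 (chr2:103800534-103801229, fold 3.77, 27 fragments) and with 25RA (chr2:103800966-103801223, fold 2.88, 18 fragments), both over exon 2 and intron 2. It also had the promoter peak of highest fold in the 1-1067 set, with 1-1067 (chr2:103802416-103802659, fold 3.25, 17 fragments, level 7.85, interval 4.57 to 12.6). With 34DN a peak covered chr2:103802439-103802659 with fold 2.74 and 13 fragments, a level of 5.03 (2.68 to 8.60), and counted as body only because it began past the 2 kb limit. The peak with 1-1067 only reached across that limit, and its summit, 2136 bases downstream of the TSS, lay past it. The overlap of the peaks, in intron 2, also lay past the limit. The stretch around the 1-1067 summit is printed because that promoter call had the highest fold in the 1-1067 set. It lay past the limit too and held no CG dinucleotide in 200 bases.
Lmo2 intron 2 (chr2:103802474-103802673): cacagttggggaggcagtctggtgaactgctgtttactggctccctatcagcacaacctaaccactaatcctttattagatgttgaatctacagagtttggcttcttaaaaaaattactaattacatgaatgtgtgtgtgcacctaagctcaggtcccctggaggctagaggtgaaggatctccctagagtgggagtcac

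Gata2, the zinc finger factor of stem cell maintenance, had peaks at its second exon with 1-590 (chr6:88176458-88176716, fold 2.06, 40 fragments, level 19.4, interval 13.9 to 26.5) and with 25RA (chr6:88176375-88176634, fold 2.39, 23 fragments, level 12.4, interval 7.84 to 18.6). The local background under the 1-590 peak was 9.16 times the genome background, and the fold was low. Whether that background came from this library or a control library is not given. Fli1, an ETS factor, had 2 promoter sites that were each listed in more than 1 library. The first, with summits at -869 bases with vector and -871 with 1-590, had a level of 18.7 with vector (10.9 to 30) and 15.5 with 1-590 (10.6 to 21.9). The second (chr9:32451487-32452083), in intron 1, had a level of 13.1 with 1-590 (8.64 to 19.1) and 8.13 with 10RA (4.45 to 13.6), with summits 1284 and 1233 bases downstream of the TSS.

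Myb had a shared promoter site in intron 1 (chr10:21034174-21035227), with a level of 12.1 with vector (6.05 to 21.7), 11.7 with 1-590 (7.47 to 17.3) and 11.6 with 10RA (7.10 to 17.9). Their summits lay 1737, 1797 and 1903 bases downstream of the TSS. With 25RA a peak of this merged site, of level 8.60 (4.92 to 14.0), lay 2653 bases downstream and fell outside the promoter. A second Myb promoter peak, at -231 bases, was listed with 1-590 alone (level 14.6, 9.83 to 20.8). Mecom had promoter peaks with vector (level 23.1, 14.3 to 35.4), 1-590 (21.9, 15.9 to 29.2) and 10RA (19.2, 13.2 to 26.9). Its peak with 36EQ lay at -1540 bases from the TSS and held 18 fragments, at a -log10 q of 0.50.

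Set against vector, 1-590 had 4 genes with a promoter peak that vector lacked, Runx1, Gata2, Erg and Lmo2, where 17.8% of all genes showed this pattern. The reverse was seen at 0 of the 10, against 3.03%. The vector library was the shallowest of the set. At the local background under the 1-590 peak, a level of 12.1 was needed to enter the vector list at Runx1, 20.9 at Gata2 and 11 at Erg. The levels with 1-590 were 11.2, 19.4 and 10.2, so peaks of that level would not have been listed in vector. Lmo2, at 13.1, was above the 9.92 needed, while the lower end of its interval, 8.64, was below it. With every listed summit of the set thinned to the depth of vector, the expected count was 2.48 of the 10 in place of 4, and 12.5% of all genes. With lists of equal length, Lmo2 alone was left.

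For 10RA against vector, 0 of the 10 genes had a peak with 10RA alone (11.1% of all genes) and 1, Spi1, had it with vector alone (10.2%). The vector level of 15.4 at Spi1 exceeded the 9.88 needed to enter the 10RA list, but its interval began at 8.43. For 25RA against vector, Gata2 and Lmo2 had it with 25RA alone (14.0%), and Fli1, Mecom and Myb with vector alone (6.60%). At the latter 3, vector levels of 18.7, 23.1 and 12.1 exceeded the 10.2, 15.6 and 8.07 needed to enter the deeper 25RA list. The intervals of those levels began at 10.9, 14.3 and 6.05, above the needed level at Fli1 alone. The 25RA peak of the merged Myb site lay past the 2 kb limit. For Gata2 and Lmo2 the 25RA levels of 12.4 and 9.68 were below the 13.2 and 9.92 needed in vector.

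Against its parent 1-590, 10RA lacked a peak at Runx1, Gata2, Erg, Lmo2 and Spi1 (18.4% of all genes) and 0 of the 10 had the reverse (4.53%). 25RA lacked it at Runx1, Erg, Fli1, Mecom and Myb (12.9%), with the reverse at 0 (5.53%). With promoters of 5 kb the Runx1 and Erg calls were lost for 10RA, and the Erg and Myb calls for 25RA. In each case a peak of the mutant lay past the 2 kb limit. At each of the 10 calls made at 2 kb, the level with 1-590 was above that needed to enter the mutant's list at the same local background. These levels were read only at summits that had passed the 1-590 threshold. Their intervals began below the needed level at Runx1, Gata2 and Erg for 10RA, and at Runx1, Erg and Mecom for 25RA. Counting every annotated coding start left Gata2, Lmo2 and Spi1 for 10RA and Fli1 and Myb for 25RA. Lists of equal length left Lmo2 and Spi1 for 10RA, and gave Fli1, Lmo2, Mecom and Myb for 25RA. Between the mutants, Gata2, Lmo2 and Spi1 had a peak with 25RA but not 10RA (13.8%), and Fli1, Mecom and Myb with 10RA but not 25RA (7.32%). Lyl1 alone had it with both. Where the mutants differed, each level exceeded that needed to enter the other mutant's list, but each interval began below it. Lists of equal length left Spi1 alone for 25RA but not 10RA, and Fli1, Mecom and Myb for 10RA but not 25RA. These comparisons share their libraries and are not independent of each other.

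In the 1-1067 set, Lmo2, Lyl1 and Spi1 had a peak with 1-1067 but not with vector (6.51% of all genes), not with 34DN (6.52%) and not with 36EQ (5.96%). Mecom had it with 36EQ but not with vector (6.02%), 1-1067 (5.27%) or 34DN (5.59%). The reverse patterns were each at 0 of the 10: vector but not 1-1067 (4.74%), vector but not 34DN (5.29%), vector but not 36EQ (4.94%), 34DN but not vector (4.80%), 34DN but not 1-1067 (4.27%) and 34DN but not 36EQ (4.02%). With a promoter of 1 kb on each side only Lyl1 kept its call among the 3 genes with 1-1067. The Lmo2 call against 34DN rested on the 2 kb limit and was lost at 5 kb. With summits in place of overlaps, the Lmo2 calls against vector, 34DN and 36EQ were all lost. The Spi1 calls were lost at q up to 0.05. At Lmo2, Lyl1 and Spi1 the level with 1-1067 exceeded that needed to enter each of the other lists. Each interval began below the needed level. The 36EQ level at Mecom, 6.33, was below the 6.46 needed with 1-1067. A peak of that level would not have been listed there. It exceeded the 6.17 needed with vector and the 6.19 needed with 34DN, but its interval began at 3.75.

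**Figure D3:**
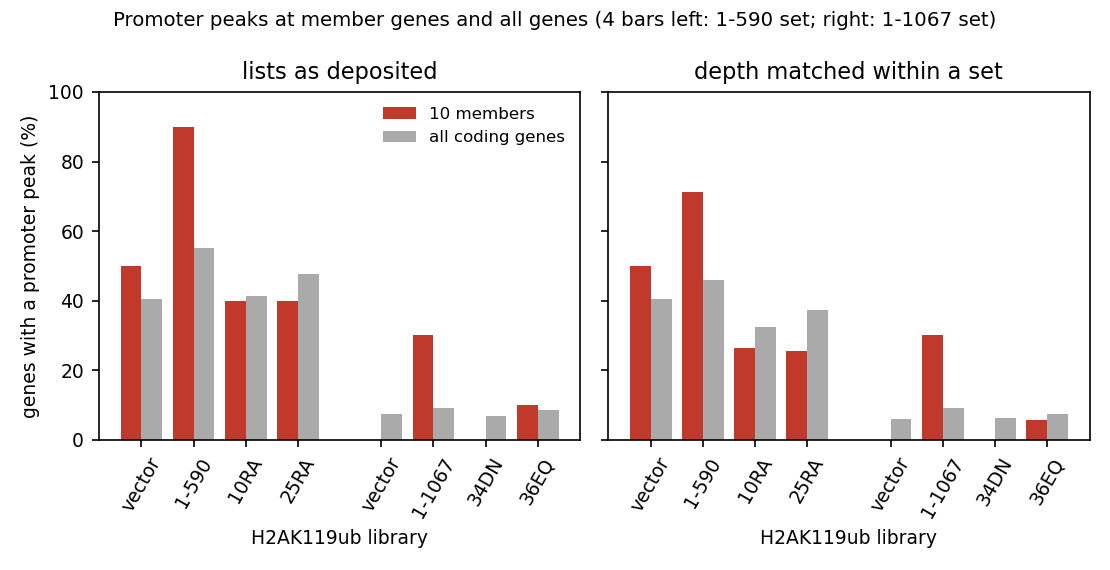
Share of genes with an H2AK119ub promoter peak (vertical axis, %) in each library, for the 10 genes (red) and all protein-coding genes (grey), in the lists as deposited (left) and with depth matched within a set by thinning (right). The 1-590 bar of the 10 genes is 9 of 10 as deposited and 7.13 of 10 in expectation at matched depth, where 46.0% of all genes have a peak.

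The local background under their highest-fold promoter peaks, as a multiple of the genome background, had a median of 3.94 with 1-590 against 2.46 over all genes with a promoter peak. It was 4.47 against 2.73 with vector, 5.11 against 2.16 with 10RA and 3.94 against 2.22 with 25RA. Promoters of the 24 partner genes described further on had medians of 4.77 with 1-590, 4.08 with vector, 4.14 with 10RA and 3.25 with 25RA, so a raised local background was not particular to the 10 genes. The fold of the 10 genes went the other way, with a median of 2.75 against 4.16 with 1-590 and 3.0 against 4.17 with vector. For the partners the median fold was 3.45 with 1-590, 4.47 with vector, 3.57 with 10RA and 3.45 with 25RA. Gata2, Lyl1 and Mecom stood highest, with 9.16, 9.46 and 8.96 times the genome background with 1-590, and Spi1 lowest with 2.64. The authors' caller measures a peak against this local background, so at an equal level a higher local background gives a lower fold. Whether this accounts for the low folds of the 10 genes was not tested.

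**Figure D4:**
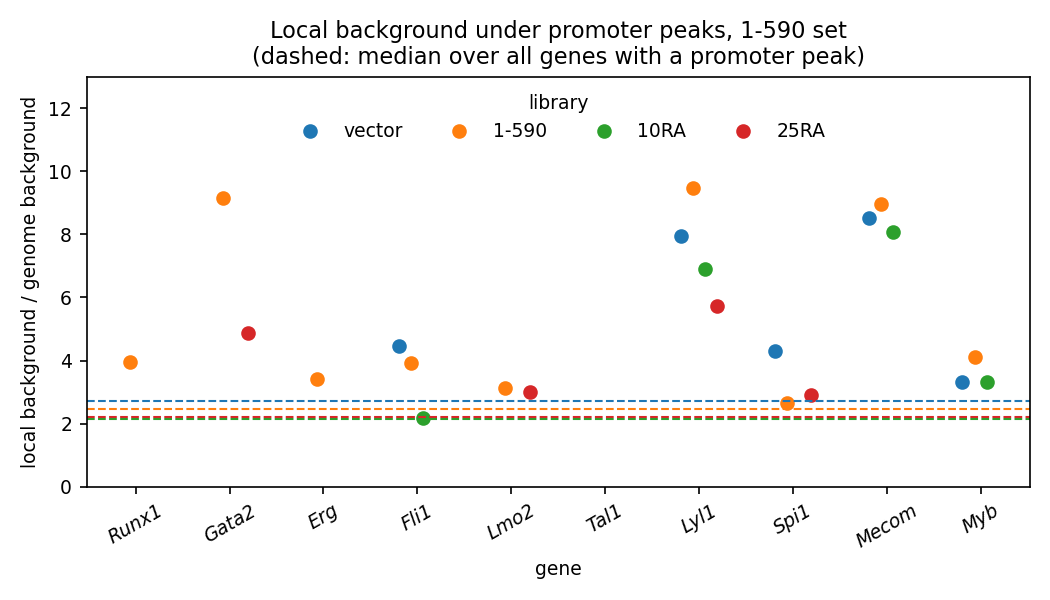
Local background under the highest-fold promoter peak of each gene (points), divided by the genome background of the library, for the 4 libraries of the 1-590 set; dashed lines give the median over all genes with a promoter peak in that library. Points of Lyl1 and Mecom lie between 5.72 and 9.46, above the medians of 2.16 to 2.73.

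CpG content of the 10 promoters, as the observed over expected ratio within 500 bases on each side of the TSS, had a median of 0.58, against 0.57 over all genes. Lmo2 (0.91) and Myb (0.85) were CpG-rich and Runx1 (0.31), Erg (0.32) and Spi1 (0.34) were CpG-poor. In 300 bases around each of the 49 summits at these genes in the 1-590 list, promoter, body and rest of gene together, the letters AGATAA, as in GATA sites, occurred on either strand in 18.4%, against 8.11% of all peaks of that list. With 10RA the shares were 21.6% of 37 summits and 7.56%, with 25RA 13.2% of 38 and 7.90%, and with vector 7.41% of 27 and 7.74%. The letters TGTGGT of RUNX sites occurred in 20.4% against 20.9% with 1-590, AGGAAG of ETS sites in 34.7% against 39.6% (with vector 14.8% against 38.0%), and CAGCTG, an E-box, in 20.4% against 21.4%. RUNX letters occurred in 18.9% against 20.2% with 10RA, 28.9% against 20.7% with 25RA and 18.5% against 19.6% with vector. For the E-box this was 27.0% against 22.0%, 15.8% against 21.9% and 22.2% against 21.0%. ETS letters occurred in 37.8% against 38.7% with 10RA and 44.7% against 39.3% with 25RA. At promoter summits alone, AGATAA occurred in 1 of 14 with 1-590 and 1 of 5 with vector. It occurred in 0 of 5 with 10RA and 0 of 6 with 25RA. A match describes letters and is not a bound site.

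In gene bodies the 10 genes held 28 H2AK119ub peaks with 1-590, 26 with 10RA, 21 with 25RA and 15 with vector. Per 100 kb this was 2.61, 2.42, 1.95 and 1.40, against 1.04, 0.976, 1.23 and 0.641 over all genes. At least 1 body peak was present in 7 genes with 1-590 (24.0% of all genes) and 6 with 10RA (24.0%). It was present in 6 with 25RA (27.2%) and 6 with vector (18.2%). The bodies of the 10 genes covered 1074.7 kb and long genes hold more peaks, so these shares are not matched for length. Runx1 held 33 of the 90 body peaks of this set and Mecom 23, Erg 15, Myb 6, Fli1 5 and Tal1 5. Gata2, with a transcript of 8.7 kb, held 1, Spi1 2, and Lmo2 and Lyl1 0. Of the 90, 80 had their summit in an intron of the canonical transcript. In the 1-1067 set the bodies held 4 peaks with 1-1067, 2 with 34DN, 5 with 36EQ and 4 with vector, or 0.372, 0.186, 0.465 and 0.372 per 100 kb against 0.230, 0.192, 0.226 and 0.220. Those peaks lay in 3, 2, 3 and 3 genes (8.35%, 7.04%, 8.13% and 7.76% of all genes), and 3 of the 15 had a q of 0.05 or less.

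No BAP1 or ASXL1 peak lay at a promoter of the 10 genes in any of the 4 ChIP libraries. Over all genes a promoter peak was present at 0.363% in the BAP1 1-590 library, 0.552% in BAP1 10RA, 1.07% in ASXL1 1-590 and 0.455% in ASXL1 10RA. The pairs were likewise 0 of 10: 0.492% of all genes had a BAP1 peak with 10RA alone and 0.303% with 1-590 alone, and 0.386% and 0.997% had an ASXL1 peak. Body peaks were present in 1 gene in BAP1 1-590 (4.08% of all genes), 0 in BAP1 10RA (6.40%), 2 in ASXL1 1-590 (9.28%) and 1 in ASXL1 10RA (5.50%).

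The ChIP peaks within these genes lay in introns and held 12 to 18 fragments at their summits. BAP1 with 1-590 had a peak in intron 1 of Fli1 (chr9:32404390-32404702, fold 3.04, 15 fragments). ASXL1 with 1-590 had a peak in intron 5 of Runx1 (chr16:92461387-92461601, fold 2.37, 15 fragments), 2 in intron 1 of Mecom (chr3:30340446-30340637, fold 2.63, and chr3:30305984-30306171, fold 2.54), and 1 upstream of the canonical TSS of Erg (chr16:95338321-95338556, fold 2.75, 18 fragments). ASXL1 with 10RA had 2 in intron 1 of Mecom (chr3:30431202-30431403, fold 3.54, 14 fragments, and chr3:30070237-30070407, fold 3.22, 12 fragments). None of these 7 had a q of 0.05 or less, and none met any of the 112 H2AK119ub sites. How often ChIP peaks meet such sites over all genes was not counted, so this absence cannot be read as separation. The 100 bases at the summits of highest fold for each protein are shown for their composition, plus strand of GRCm39, CG in capitals.
Fli1 intron 1, BAP1 with 1-590 (chr9:32404546-32404645): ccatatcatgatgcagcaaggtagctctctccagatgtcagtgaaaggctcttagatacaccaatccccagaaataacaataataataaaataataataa
Mecom intron 1, ASXL1 with 10RA (chr3:30431242-30431341): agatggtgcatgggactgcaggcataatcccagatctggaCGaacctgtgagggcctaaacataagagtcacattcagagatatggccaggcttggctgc

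Partners of these factors in blood cells were read from a list of 24 other transcription regulators. An H2AK119ub promoter peak was present in 20 with 1-590 (55.2% of all genes) and 16 with 10RA (41.4%). It was present in 15 with 25RA (47.8%) and 11 with vector (40.5%). In the 1-1067 set the counts were 3 with 1-1067 (9.21%), 2 with 34DN (6.95%), 3 with 36EQ (8.52%) and 0 with vector (7.44%). Of the 24, 10 were listed in all 4 libraries of the 1-590 set, against 1 of the 10 genes and 26.7% of all genes. These 10 included Cbfb, the partner of Runx1 in core-binding factor (fold 5.92 with vector, 5.46 with 1-590, 4.52 with 10RA and 4.07 with 25RA), and Ldb1, which joins Lmo2 complexes (5.30, 4.18, 4.45 and 3.27). Both were singled out after their values were seen. Tcf12, Gata1 and Nfe2 had none, as Tal1.

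Partners with a peak in 1-590 and none in vector numbered 9 (17.8% of all genes), and 0 had the reverse (3.03%). The 8 of highest fold were Tcf3, the E protein that pairs with Tal1 and Lyl1, the ETS repressor Etv6, the repressors Gfi1b and Gfi1, Runx3, Bcl11a, Meis1 and Gata3. Tcf3 had a peak at fold 5.54 with 1-590, 3.31 with 1-1067, 3.86 with 34DN and 3.95 with 36EQ, and none with either vector, 10RA or 25RA. Zfpm1, the cofactor of GATA factors, had a peak in 7 of the 8 H2AK119ub libraries, all but the vector of the 1-1067 set. At matched depth, 7.37 partners were expected with a peak in 1-590 and none in vector (12.5% of all genes), and 0.713 the reverse (6.97%). Against 10RA, 5 partners had a peak with 1-590 alone (18.4% of all genes), and against 25RA also 5 (12.9%). The reverse was seen at 1, Hlf, for 10RA (4.53%) and at 0 for 25RA (5.53%). No partner promoter held a BAP1 or ASXL1 peak, where 0.363% to 1.07% of all genes did in each ChIP library.

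By the pattern of promoter peaks over the 8 H2AK119ub libraries, Runx1 and Erg were alike, and Meis1, a homeobox factor of stem cells, shared their pattern of a peak with 1-590 alone. That pattern was seen at 4.53% of all genes. Gata2 shared its pattern with Gfi1b and Etv6 (3.43% of all genes), and Fli1 with Myb (1.78%). Mecom shared its pattern with 0.152% of all genes, Lmo2 with 0.267% and Spi1 with 0.299%, and none of these 3 had a match among the 24 partners. Tal1 shared the absence of any promoter peak with 34.2% of all genes.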

How the data were processed

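H2AK119ub CUT&RUN (8 libraries) and BAP1 and ASXL1 ChIP-seq (4 libraries) were analysed from the authors' peak lists, 1 per library, each library being 1 condition. Groups follow the sample labels, and comparisons stayed within a labelled batch. The submitters' processing notes list MACS3 3.0.3 and name Picard, SAMtools, Bowtie2 2.5.4 and fastp 0.24.0, on mm39. Use of a control library is not given in the sources used here. The deposited fold of a peak is the ratio of summit fragments plus 1 to local background plus 1, as the values themselves show. The deposited -log10 p and -log10 q are the caller's, and the deposited score is 10 times -log10 p, cut to a whole number in nearly every peak. The lists reach p of 0.001, with q up to 51.4%. Whole fragment numbers and local backgrounds were recovered from fold and p for 100% of peaks in each list (tolerance 0.002 on -log10 p). Normalization of the CUT&RUN to an E. coli spike-in is stated in the labels, whereas the peak calls rest on whole fragments, and no spike-in scale was applied here.

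The peaks of chromosomes 1 to 19, X and Y were placed in GENCODE vM39 genes on GRCm39 by an overlap of 1 base, and 0 peaks ran past a chromosome end. The level is summit fragments over genome background. The level needed to enter a list was computed as the fewest fragments reaching p of 0.001 at the local background multiple of the other library; both measures were chosen after seeing the data. Depth matching gave the exact binomial probability that each listed summit would still reach that p after thinning to the shallowest library of the batch. The recovery and overlap functions were tested on simulated data. With 1 library per condition no test was run, and counts stand beside those over all genes. The 10 genes, the 24 partners and the motifs were chosen with earlier results of these data known. All 10 genes are named; partners are named where a pair differs, up to 8 per pair and direction by fold, or where they share a gene's pattern. Sequences were read from GRCm39 with samtools 1.23.1; the RefSeq promoter table is on another build and was not used, and windows in UTRs were not printed. The scripts used Python 3.11.15, numpy 2.4.6, scipy 1.17.1, matplotlib 3.10.9 and bedtools 2.31.1.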

Additional observations from a re-analysis of the deposited data

How the results depend on the processing

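Counts of the 10 genes with a promoter peak, of genes with a peak in 1 library of a pair only, and of body peaks were recomputed with promoters of 1 or 5 kb, every annotated coding TSS, summits in place of overlaps, peaks of q up to 0.05, lists of equal length within a batch (20124 and 5307 peaks) and matched depth. A count is called moved where it left 1.5 times its reported value. Using summits moved none of the 12 promoter, 28 pair and 12 body counts by this rule. The promoter count with 1-1067 still fell from 3 to 2, as Lmo2 was lost. Matched depth moved 3 promoter and 9 pair counts, 5 kb 3 and 5, 1 kb 3 and 9, every TSS 4 and 5, the q limit 1 and 3, and equal length 2 and 7.

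Promoter counts with 10RA became 7 at 5 kb, 7 with every TSS and 2.65 at matched depth, and with 25RA 2 at 1 kb, 7 at 5 kb, 8 with every TSS, 2 at equal length and 2.55 at matched depth. Vector of the 1-590 set rose to 8 with every TSS and 1-1067 fell to 1 at 1 kb. With 34DN the count was 1 at 5 kb and with every TSS. With 36EQ it was 0 at 1 kb, at q up to 0.05 and at equal length, and 0.566 at matched depth.

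Genes with a peak in 1-590 but not vector numbered 2 with every TSS, 1 at equal length and 2.48 at matched depth, and in vector but not 1-590 1 at 1 kb and 0.355 at matched depth. For 10RA but not vector the count was 1 at 5 kb, and for vector but not 10RA 2.35 at matched depth. For 25RA but not vector it was 1 at 1 kb, 0 at equal length and 1.17 at matched depth. For 10RA but not 1-590 it was 1 at 1 kb and 0.218 at matched depth, and for 1-590 but not 10RA 3 at 5 kb, 3 with every TSS and 2 at equal length. For 25RA but not 1-590 it was 0.204 at matched depth, for 1-590 but not 25RA 3 at 5 kb and 2 with every TSS, and for 25RA but not 10RA 1 at equal length. For 1-1067 but not vector, 34DN or 36EQ it was 1 each at 1 kb. For 34DN but not vector or 36EQ it was 1 each at 5 kb and with every TSS. For 36EQ but not vector, 1-1067 or 34DN it was 0 each at 1 kb, at q up to 0.05 and at equal length, and 0.566 each at matched depth.

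Body peaks at q up to 0.05 numbered 0 with BAP1 in 1-590, 0 with ASXL1 in 1-590, 0 with ASXL1 in 10RA, 0 with 1-1067, 0 with 34DN, 2 with 36EQ and 1 with vector of the 1-1067 set. At equal length they were 1 with ASXL1 in 1-590, 15 with H2AK119ub in 1-590 and 10 in 25RA, and over the whole annotated gene 32 in 25RA. The cause of these shifts was not tested. No paired analysis was possible because each condition had 1 library and the labels give no replicate numbers.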
